A study of Xenopus tropicalis with 18 samples.

Results

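Foregut explants from Xenopus tropicalis embryos treated with cyclopamine were set against foregut explants from embryos treated with BMS493. The comparison used 6 of the 18 RNA-sequencing libraries of the study, 3 for each drug, chosen by the drug named in the sample labels. Cyclopamine blocks Smoothened, the membrane protein that passes the Hedgehog signal into the cell once Patched has bound its ligand. BMS493 is an inverse agonist of the retinoic acid receptors, nuclear proteins that bind DNA and can repress target genes until retinoic acid releases the repression. In vertebrate embryos Hedgehog ligands made by the gut endoderm act on the surrounding mesoderm, while retinoic acid made by trunk mesoderm helps to set the boundary between pharynx and more posterior foregut. The direct comparison asked which foregut transcripts depended differently on these pathways.

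Cyclopamine was given at 40 µM and BMS493 at 100 nM, both from Nieuwkoop and Faber stage 15 until collection at stage 33, a tailbud stage with a simple gut tube. The drugs differ in dose and in target, so the comparison is of the treatments as given. For both drug groups the labels name only the drug, and neither a DMSO vehicle nor a morpholino is stated. Control foregut embryos received 0.1% DMSO and 1 ng of a mismatch morpholino, injected at the 2-cell stage at 500 pg in each cell. Control hindgut embryos and control head with pharynx embryos received 0.1% DMSO. Rfx6 morpholino foregut embryos, a further group referred to below, received 0.1% DMSO and 1 ng of an Rfx6 morpholino. It was also injected at the 2-cell stage at 500 pg in each cell. Control foregut libraries took no part in the drug comparison and were used as a separate measurement. Each library came from 8 pooled explants, which kept mesoderm together with endoderm, of the Nigerian strain. The labels name no parents or clutches, and all p-values therefore rest on the spread between libraries, which may be technical.

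The 6 libraries held between 29667904 and 81614727 counts, and 1 CPM, the count scaled to library size, stood for at least 29 counts in each. Replicate 3 was the shallowest library of each drug group, at 35288038 counts for cyclopamine and 29667904 for BMS493. The gene identifiers carried no symbols, and 0 of 28863 matched a reference table of 28858 RefSeq genes. Hedgehog and retinoic acid target genes and cell type markers could therefore not be looked up, and the labelled tissue could not be checked against named markers. Genes were grouped instead by where they were expressed in control embryos, using the 9 control libraries of head with pharynx, foregut and hindgut. Of these tissues only control foregut is labelled with the mismatch morpholino. Every regional class uses a comparison with control foregut, and in that comparison tissue position and injection cannot be told apart. In bulk explants, fewer cells of a type and less RNA per cell cannot be told apart.

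Replicates were not equally spread. The biological coefficient of variation, the spread beyond counting noise, was 0.0396 between cyclopamine replicates 1 and 2, against 0.0759 and 0.0889 for the pairs with replicate 3. It was 0.0248 between BMS493 replicates 1 and 2, against 0.171 and 0.168 for the pairs with replicate 3. Replicates 1 and 2 still differed by more than sampling noise, with a median chi-square of 2.43 times the expected value for cyclopamine and 2.59 times for BMS493. This excess cannot tell whether they share explants or RNA, which the labels do not state. They were kept as separate samples, as labelled. Calls are also given with replicates 1 and 2 summed in both groups. The first principal component held 78.9% of the variance and separated the drugs. The 3 cyclopamine libraries lay together on it (scores of -53.2, -53.9 and -55.8), whereas BMS493 replicate 3 (80.7) lay farther out than BMS493 replicates 1 and 2 (40.4 and 41.8). Control foregut, used for the gene classes below, was also unevenly spread. Its coefficient of variation was 0.0892 between replicates 1 and 3, against 0.180 and 0.174 for the pairs with replicate 2.

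A set of 67 genes was found only in the head with pharynx among control tissues, with at least 100 counts in every head with pharynx library and no more than 3 counts in all 6 control foregut and hindgut libraries together. In cyclopamine replicates 1, 2 and 3 their median level was 0, 0 and 0% of that in head with pharynx, and 35, 36 and 42 of the 67 had no counts. In BMS493 replicates 1, 2 and 3 the median was 16.1, 16.0 and 86.9%, and every gene had counts in every library. The signal was not limited to BMS493 libraries. In foregut injected with an Rfx6 morpholino, for which no BMS493 is stated, the median was 0, 0 and 18.2% in replicates 1, 2 and 3, and in its replicate 3 all 67 genes had over 10 counts. The 25th and 75th percentiles of the genes were 12.2 and 19.5% in BMS493 replicate 1, 12.3 and 19.2% in replicate 2, and 75.6 and 100.7% in replicate 3. Their 10th and 90th percentiles were 7.97 and 28.3%, 7.76 and 30.6%, and 69.6 and 108.5% in the same order. Head with pharynx expression in foregut cells and head with pharynx tissue in the explants cannot be told apart in these libraries. This measure moved with each regional difference below, and its part in them was not tested.

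Expression differed widely between the drugs. Of 18657 genes tested, 4180 were higher (22.4%) and 4183 lower (22.4%) in cyclopamine than in BMS493 foregut at a Benjamini-Hochberg adjusted p under 0.05 in edgeR's quasi-likelihood test. Most differences were small. Called genes had a median absolute log2 fold change of 0.48 (median SE 0.08). At least 2-fold differences were seen in 749 higher genes (4.01% of those tested) and 916 lower genes (4.91%). The split was even with TMM scaling, which corrects library sizes for differences in composition, and with DESeq2 size factors, which gave 4152 higher and 4221 lower genes. Scaled to total counts, 3231 genes were higher and 5275 lower, and the median gene lay at -0.07 on the log2 scale.

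Summing replicates 1 and 2, which leaves 2 libraries in each group, gave 2254 higher (11.8%) and 2242 lower genes (11.8%) of 19080 tested. Of these 4496 genes, 4480 were also called with all 6 libraries, each in the same direction, and they made up 53.6% of the calls with all libraries. The 2-fold calls moved less, to 697 higher and 762 lower. Leaving out replicate 3 of both groups, which keeps only the close pairs, gave 5901 higher and 5819 lower genes, with 679 and 842 at least 2-fold.

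The regional classes gave the comparison its main pattern. Between control tissues, 28.1% of 18551 genes differed at least 2-fold in hindgut against head with pharynx, 22.8% in foregut against head with pharynx, and 9.68% in foregut against hindgut. A gene was called enriched in a tissue when it was at least 2-fold higher there than in both others. It was called shared by 2 tissues when it was at least 2-fold above the remaining one in each. These 2-fold limits, and those of the percentages above, also required an adjusted p under 0.05 in edgeR's test. In the 3 classes in which head with pharynx was low, called genes were mostly higher in cyclopamine than in BMS493 foregut. In the 3 classes in which it was high, they were mostly lower. The control libraries that defined the classes were not in the drug comparison. They include control foregut, so the control foregut level of a class, given below beside the drugs, is in part set by the class rule and is a description.

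Genes enriched in head with pharynx were lower in cyclopamine than in BMS493 foregut. Of 1520 tested members, of 1596 in the class, 1229 were lower and 12 higher, and 279 were not called. This was 80.9% lower, against 22.4% of all genes. Their mean level was 1.02, 1.01 and 0.96 log2 CPM in cyclopamine replicates 1, 2 and 3, against 2.26, 2.27 and 2.92 in BMS493 replicates 1, 2 and 3. The drug groups did not overlap, and BMS493 replicate 3 was the highest library. Control foregut libraries, on which the class was partly chosen, had 0.43, 0.47 and 0.44. The median log2 fold change was -1.05 (25th to 75th percentile -1.72 to -0.70), against 0.00 over all genes. Without BMS493 replicate 3 it was -0.87, and 82.3% of the members were lower.

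The difference in this class was not limited to genes silent in the gut. Of 703 members with at least 1 TPM, a level per transcript length and depth, in control foregut, 622 were lower in cyclopamine and 7 higher, with a median of -0.80. Their mean level was 3.28 to 3.33 log2 CPM in cyclopamine libraries, against 4.07 to 4.41 in BMS493 libraries and 2.92 to 3.04 in control foregut libraries. Of 817 members under 1 TPM in control foregut, 607 were lower and 5 higher, with a median of -1.42. Of the 66 tested genes found only in head with pharynx, 43 were lower (65.2%) and 0 higher at an adjusted p under 0.05. Their fitted median log2 fold change was -9.27, a size that rests on counts mostly at or near 0 in cyclopamine libraries. Their mean level was -3.90 to -3.74 log2 CPM in cyclopamine libraries, against 2.18 to 4.60 in BMS493 libraries. Control foregut libraries, chosen as near 0 counts for this set, had -4.62 to -4.56. Of the other 1454 members of the class 1186 were lower (81.6%) and 12 higher, with a median of -1.01.

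Genes shared by foregut and hindgut were higher in cyclopamine than in BMS493 foregut. Of 1391 tested members, of 1422 in the class, 940 were higher and 16 lower, and 435 were not called. This was 67.6% higher, against 22.4% of all genes. Their mean level was 3.09, 3.09 and 3.15 log2 CPM in cyclopamine replicates, against 2.48, 2.47 and 2.13 in BMS493 replicates. The groups did not overlap, and BMS493 replicate 3 was the lowest library. Control foregut libraries, chosen as high by the class rule, had 3.54, 3.39 and 3.51. The median log2 fold change was 0.70 (0.39 to 1.07). Set against the cyclopamine mean one BMS493 library at a time, the median difference of cyclopamine minus BMS493 was 0.60 for replicate 1, 0.62 for replicate 2 and 0.91 for replicate 3.

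Foregut-enriched genes were also higher in cyclopamine. Of 441 tested members, 219 were higher (49.7%, against 22.4% of all genes) and 15 lower, and 207 were not called. Over the class the mean was 2.32, 2.33 and 2.21 log2 CPM in cyclopamine replicates, against 1.88, 1.84 and 1.33 in BMS493 replicates. Again the groups did not overlap. Control foregut replicates 1 and 3 had 3.05 and 3.06 and control replicate 2 had 2.35, again under a rule that chose genes high in these libraries. The median log2 fold change was 0.59 (0.14 to 0.98), and 0.45 without BMS493 replicate 3. With replicates 1 and 2 summed, 137 of 443 were higher (30.9%) and 4 lower, against 11.8% of all genes in that fit.

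Hindgut-enriched genes went the same way. Of 496 tested members, of 523 in the class, 250 were higher (50.4%) and 24 lower, and 222 were not called. Among all genes 22.4% were higher. The class averaged 2.68, 2.67 and 2.98 log2 CPM in cyclopamine replicates, against 2.35, 2.34 and 2.17 in BMS493 replicates, with the highest value in cyclopamine replicate 3. Control foregut libraries had 2.79, 2.99 and 2.82. The median log2 fold change was 0.45 (0.08 to 0.90). It was 0.36 without replicate 3 of both groups.

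Both smaller classes, in which head with pharynx was among the high tissues, were mostly lower in cyclopamine among their called genes. Among all genes 22.4% were lower. Of 275 tested genes shared by foregut and head with pharynx, of 276 in the class, 141 were lower in cyclopamine (51.3%) and 11 higher. The median log2 fold change was -0.43. The class averaged 1.83, 1.83 and 1.74 log2 CPM in cyclopamine, against 2.16, 2.16 and 2.31 in BMS493 and 1.93, 1.83 and 1.93 in control foregut. All 3 BMS493 libraries stood above the cyclopamine libraries. Of 55 tested genes lowest in foregut, of 59 in the class, 34 were lower in cyclopamine (61.8%) and 1 higher, with a median of -0.77. They averaged 1.26, 1.25 and 1.38 log2 CPM in cyclopamine, against 1.92, 1.89 and 2.20 in BMS493 and 0.66, 0.74 and 0.77 in control foregut.

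**Figure D1:**
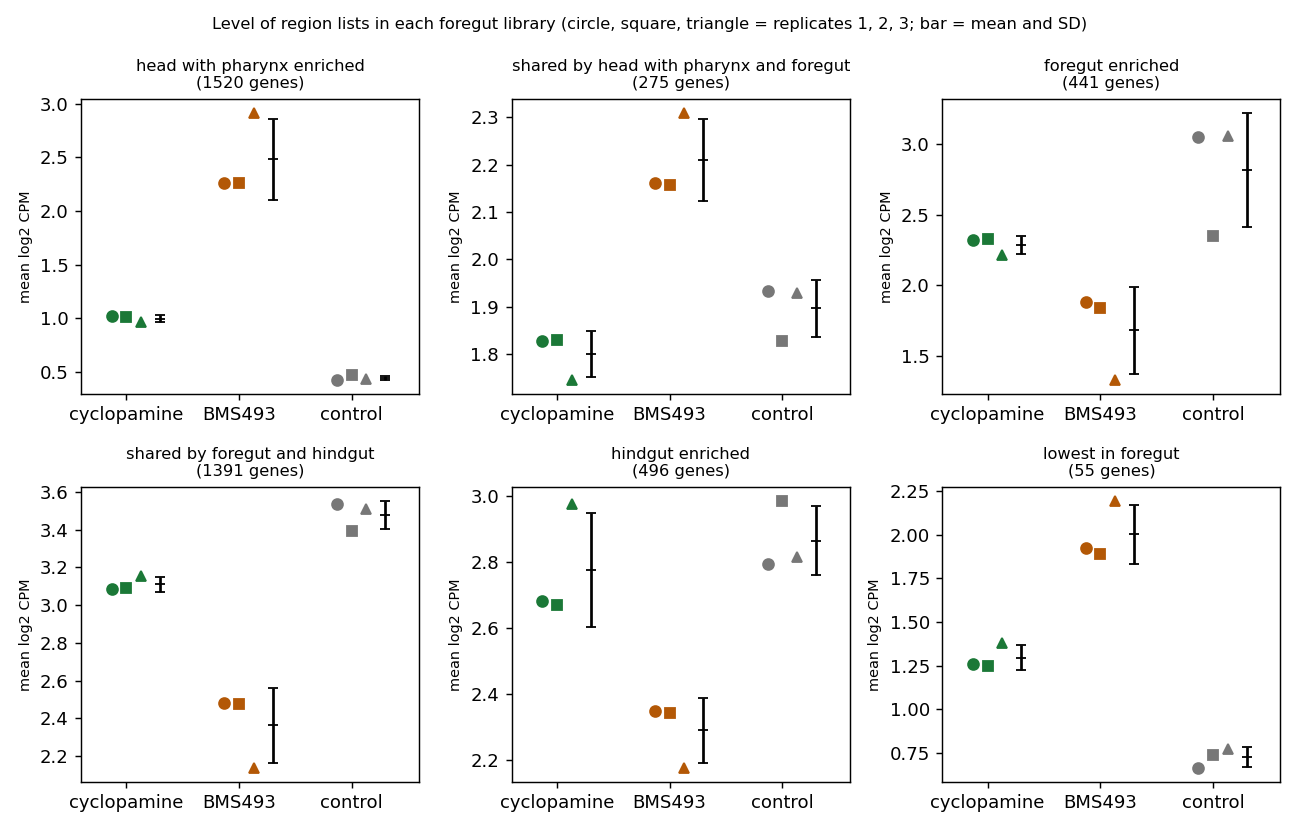
Mean log2 CPM over the tested genes of each regional class (y axis) in each cyclopamine, BMS493 and control foregut library (points; circle, square and triangle for replicates 1, 2 and 3; bar for the mean and SD of 3 libraries). In each of the 6 classes the cyclopamine and BMS493 libraries do not overlap, and BMS493 replicate 3 lies farthest from the cyclopamine libraries.

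Genes outside the regional classes were split evenly in the edgeR fit with TMM scaling. Of 14107 such genes tested, 2729 were higher (19.3%) and 2705 lower (19.2%) in cyclopamine, with a median log2 fold change of 0.00. Scaled to total counts, 13.3% were higher and 26.4% lower, and with limma on log2(TPM + 1) 8.84% were higher and 23.4% lower. With TMM scaling they averaged 3.94, 3.94 and 3.93 log2 CPM in cyclopamine, against 3.93, 3.92 and 3.94 in BMS493. TMM scaling centres libraries on the bulk of genes, so this closeness is in part set by it. Of 5039 tested genes that were called in none of the 3 control tissue comparisons, 620 were higher (12.3%) and 538 lower (10.7%). With replicates 1 and 2 summed, 136 of 5095 such genes were higher and 135 lower.

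**Figure D2:**
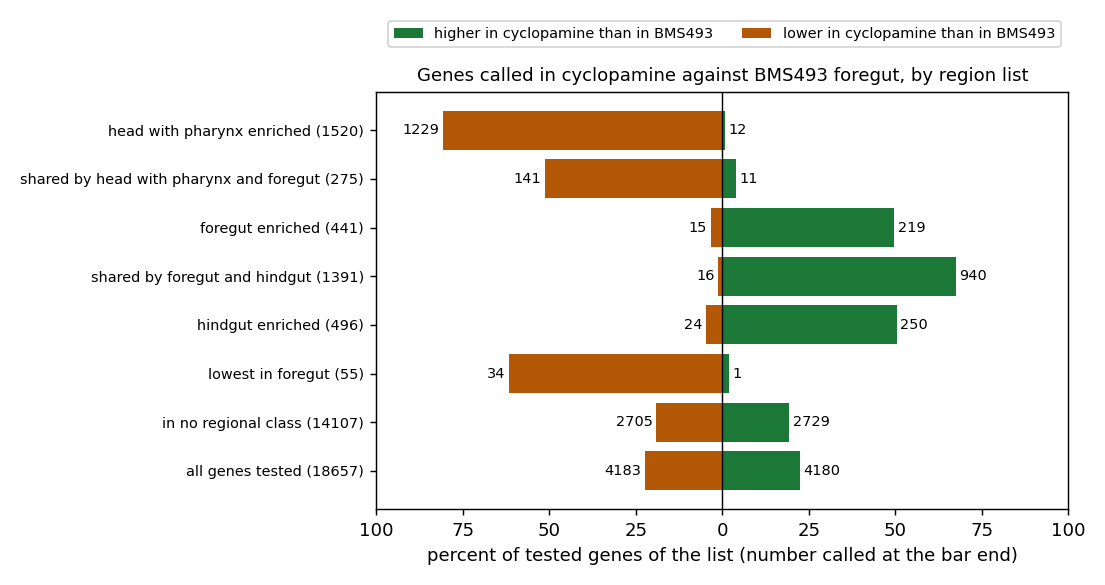
Percent of the tested genes of each class called higher (right) or lower (left) in cyclopamine than in BMS493 foregut, with the number of genes at each bar end and the number tested in the label. Genes enriched in head with pharynx reach 80.9% lower and genes shared by foregut and hindgut 67.6% higher, against 22.4% in each direction for all genes.

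The 2-fold differences were drawn largely from these classes. Among all 18657 genes tested, 1391 were shared by foregut and hindgut, 441 were foregut-enriched and 496 hindgut-enriched. Another 1520 were enriched in head with pharynx, and 14107 belonged to no class. Of the 749 genes at least 2-fold higher in cyclopamine, 395 (52.7%) were shared by foregut and hindgut, 102 (13.6%) were foregut-enriched and 99 (13.2%) hindgut-enriched. Another 124 (16.6%) belonged to no class. Of the 916 genes at least 2-fold lower in cyclopamine, 715 (78.1%) were enriched in head with pharynx and 132 (14.4%) belonged to no class. BMS493 replicate 3 was the BMS493 library farthest from the cyclopamine mean in 578 of the 749 higher genes (77.2%) and in 737 of the 916 lower genes (80.5%). The genes were called from these same libraries, so the shares are a description of the called genes and not of all genes.

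The drug difference was graded with the ratio of hindgut to head with pharynx expression in control embryos. Position along the embryo was not measured, and foregut did not enter the ratio. The part of the head with pharynx signal of the BMS493 libraries in this gradient was not tested. Among 444 genes at least 16-fold higher in control head with pharynx than in hindgut, the median log2 fold change of cyclopamine over BMS493 was -2.39, and 76.8% were lower. Among 585 genes between 4- and 8-fold higher in head with pharynx the median was -0.85, with 74.4% lower. Genes within 2-fold of equal in the end tissues had medians near zero, at -0.10 for 6370 genes on the head side and 0.12 for 6632 on the hindgut side. Among 556 genes between 4- and 8-fold higher in hindgut the median was 0.60, with 56.3% higher. Among 491 genes at least 16-fold higher in hindgut the median was 1.10, with 78.0% higher. The median was higher in each bin than in the one before it across all 10 bins. Across 18285 genes the log2 ratio of hindgut to head with pharynx and the log2 fold change between drugs had a Pearson correlation of 0.734 and a Spearman correlation of 0.665. This is a description across genes, which are not independent replicates, and both ratios come from libraries of 1 study.

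**Figure D3:**
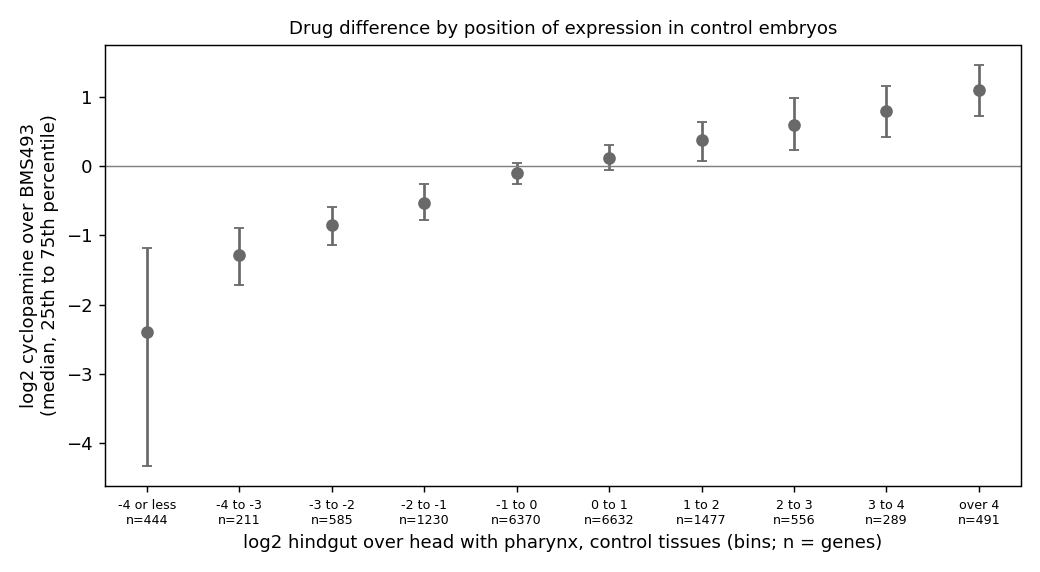
Median log2 fold change of cyclopamine over BMS493 foregut (y axis; bars from the 25th to the 75th percentile) in 10 bins of genes ordered by their log2 ratio of hindgut over head with pharynx in control embryos (x axis; number of genes under each bin). The median runs from -2.39 in the bin with the lowest ratio to 1.10 in the bin with the highest.

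The share of all counts held by a class gives its size scaled to total counts alone. Shares within a library are not independent, since a larger share of some genes leaves less for the others. Genes shared by foregut and hindgut held 10.3 ± 0.330% of counts in cyclopamine foregut and 5.86 ± 0.797% in BMS493 foregut (SD, n = 3 each). No cyclopamine library was as low as the highest BMS493 library, at 6.34%. Genes enriched in head with pharynx held 1.51 ± 0.0354% in cyclopamine, with a range of 1.48 to 1.55%, against 3.01 ± 0.591% in BMS493, with a range of 2.66 to 3.69%. Control head with pharynx libraries themselves had 4.94, 4.60 and 4.93%, so BMS493 replicate 3, at 3.69%, came nearest to them.

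Foregut-enriched genes held 0.970 ± 0.0201% of counts in cyclopamine, 0.569 ± 0.114% in BMS493 and 1.36 ± 0.337% in control foregut. Hindgut-enriched genes held 2.29 ± 0.258% in cyclopamine and 1.60 ± 0.125% in BMS493. Genes shared by foregut and head with pharynx held 0.350 ± 0.00726% in cyclopamine and 0.409 ± 0.0159% in BMS493 (SD, n = 3 each). When the classes were defined without control foregut replicate 2, an alternative chosen after seeing the data, the difference of that last class turned to 0.0183 percentage points higher in cyclopamine. In all 6 classes the cyclopamine and BMS493 libraries did not overlap, and each exact two-sided permutation p was 0.1, the smallest that 3 against 3 libraries allow (0.1 after Benjamini-Hochberg adjustment over 6 tests).

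Some genes were detected under 1 drug alone. No counts were found in any cyclopamine library for 27 genes that had at least 10 counts in each BMS493 library. All 27 were enriched in head with pharynx, and 26 of them had no more than 3 counts over the 6 control foregut and hindgut libraries. Their median level in BMS493 was 12.6 CPM and the highest 65.6 CPM. In edgeR's test 4 of the 27 were called and 23 were not, with adjusted p from 0.0206 to 0.206. Among the 23, 3 had a higher mean level in BMS493 than any of the 4 called genes. In the opposite direction, 2 identifiers had no counts in BMS493 and at least 10 in each cyclopamine library, with the same 114, 95 and 60 counts, and both were called (edgeR adjusted p = 2.49e-05). Identical counts in every library show that the counting did not separate these 2 identifiers, and 43 of the 18657 tested identifiers shared all their counts with another. With the genes at 0 set to the limit that 3 counts over the group allows, the median of the head with pharynx class was also -1.05. It could not move, since these 27 of 1520 tested genes stay below the median either way.

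Control foregut lay nearer to cyclopamine than to BMS493 for most of the 2-fold genes. Each gene's control mean in log2 CPM was placed on a scale with the BMS493 mean at 0 and the cyclopamine mean at 1. The median position was 1.02 (25th to 75th percentile 0.660 to 1.33) for the 749 higher genes and 1.06 (0.797 to 1.41) for the 916 lower genes. Control foregut was nearer to cyclopamine in 623 of the higher genes (83.2%) and in 819 of the lower genes (89.4%). It lay past the cyclopamine mean, on the side away from BMS493, in 392 and 520 of them. Most of the 2-fold genes belong to regional classes, whose rule uses the control foregut level. The genes were also chosen on the drug means that set the scale, so these shares are a description. Among 2-fold genes in no regional class, control foregut was nearer to cyclopamine in 46 of 124 higher genes (37.1%) and in 83 of 132 lower genes (62.9%). Over all called genes control foregut was nearer to cyclopamine in 3136 of 4180 higher and 3293 of 4183 lower ones.

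**Figure D4:**
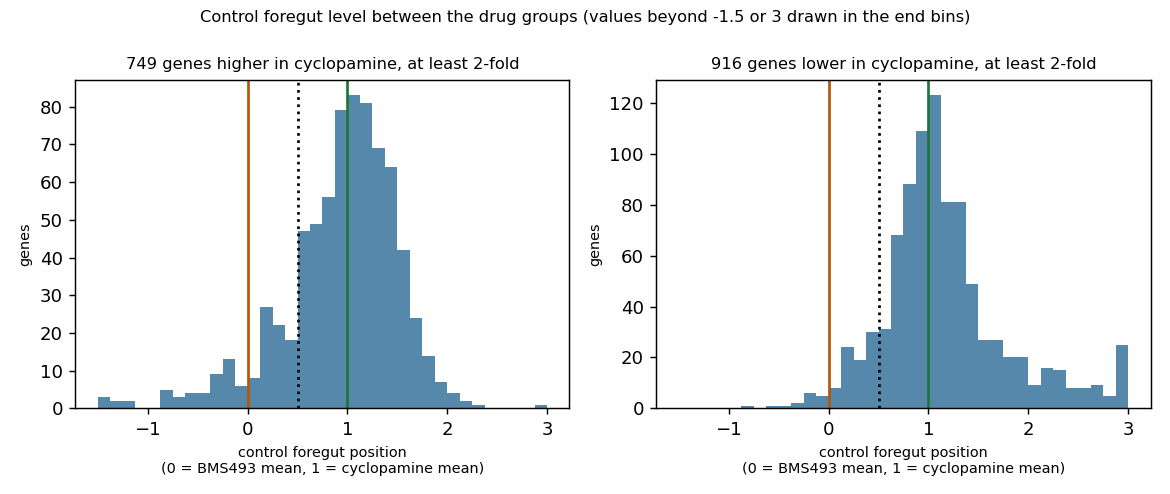
Number of genes (y axis) by the position of control foregut between the BMS493 mean (0) and the cyclopamine mean (1) on a log2 CPM scale (x axis), for the 749 genes at least 2-fold higher (left) and the 916 at least 2-fold lower (right) in cyclopamine. The dotted line marks the midpoint, and 623 and 819 genes lie on its cyclopamine side. Most of the genes shown belong to regional classes, whose rule uses the control foregut level.

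For 223 of the 1665 genes with a 2-fold difference (13.4%), control foregut was nearer to the BMS493 mean. It still lay between the drug means in 75 of the 126 such genes that were higher in cyclopamine and in 81 of the 97 that were lower. Among these, 126 were higher in cyclopamine, with mean levels of 3.11, 3.14 and 3.01 log2 CPM in cyclopamine replicates, against 1.59, 1.53 and 1.38 in BMS493 replicates and 1.27, 1.61 and 1.39 in control foregut replicates. The BMS493 and control foregut libraries overlapped and all 3 cyclopamine libraries stood above them. The other 97 were lower in cyclopamine, with -0.02, -0.01 and -0.02 log2 CPM in cyclopamine, against 1.32, 1.35 and 1.60 in BMS493 and 1.21, 0.94 and 1.21 in control foregut. These sets were chosen on the values just given, which are therefore a description.

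A larger share of these than of the other 2-fold genes lay outside the regional classes, a difference that was not tested. Both shares were below that of all genes, with 14107 of 18657 tested genes in no class. Of the 126 higher genes 78 (61.9%) belonged to no regional class, against 46 of the 623 higher genes with control foregut nearer to cyclopamine (7.38%). Of the 97 lower genes 49 (50.5%) belonged to no class, against 83 of the 819 others (10.1%). The classes use the control foregut level, so these shares are not independent of the sorting. The same positions were read in genes called in none of the control tissue comparisons. Of the 54 such genes at least 2-fold higher in cyclopamine, control foregut was nearer to BMS493 in 36 and nearer to cyclopamine in 18. Of the 44 such genes at least 2-fold lower, it was nearer to BMS493 in 14 and nearer to cyclopamine in 30. The drug groups and control foregut also differ in the mismatch morpholino and in DMSO as far as the labels state them, and the part of either in these positions was not tested.

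The largest differences among the 7774 called genes with at least 1 CPM on average and no overlap between the drug groups are given by identifier. XBXT10g013348 had 14.0, 13.7 and 6.45 TPM in cyclopamine replicates, against 1.31, 1.80 and 0.71 TPM in BMS493 replicates. Cyclopamine replicate 3 was the lowest of its group and still above all BMS493 libraries. Its log2 fold change was 3.21 (SE 0.50, edgeR adjusted p = 0.00699). Control foregut had 0.61, 1.38 and 0.31 TPM, overlapping BMS493 and below every cyclopamine library. Its call was lost with replicates 1 and 2 summed (adjusted p = 0.111), and over all alternatives the adjusted p ran between 4.13e-09 and 0.145.

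XBXT10g016335 had 2.21, 2.19 and 2.20 TPM in cyclopamine replicates, against 0.30, 0.28 and 0.21 TPM in BMS493 replicates, and the spread within either group was small beside the gap. Its log2 fold change was 3.13 (SE 0.14, edgeR adjusted p = 1.71e-06). Control foregut had 0.47, 0.89 and 0.69 TPM, between the drugs and overlapping neither, and it was nearer to BMS493 both in TPM and on the log2 scale. The gene belonged to the class shared by foregut and hindgut, and its highest adjusted p over all alternatives was 0.000119.

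XBXT10g020980 had no counts in the 3 cyclopamine libraries, against 59.0, 58.3 and 228.8 TPM in BMS493 replicates. Control head with pharynx had 332.9, 309.3 and 363.3 TPM, and control foregut had none. With the cyclopamine group set at a limit of 3 counts, the BMS493 mean of XBXT10g020980, raised by replicate 3, was 2074-fold higher. This ratio allows for counting error only. The 95% interval of the fitted log2 fold change of XBXT10g020980 ran from -22.9 to -5.25 (edgeR adjusted p = 0.0406). XBXT10g018217 also had no counts in cyclopamine, against 18.4, 19.0 and 62.3 TPM in BMS493 replicates. At the same limit its BMS493 mean was 1563-fold higher, and its 95% interval ran from -21.2 to -6.08 (edgeR adjusted p = 0.0323). Control head with pharynx had 82.0, 76.8 and 98.9 TPM of XBXT10g018217, and control foregut 0.03, 0.07 and 0 TPM. In both genes BMS493 replicate 3 was more than 3 times the level of the other BMS493 libraries. Neither gene was limited to BMS493 among treated foregut. Rfx6 morpholino foregut, for which no BMS493 is stated, had 0.11, 0 and 57.7 TPM of XBXT10g020980 in replicates 1, 2 and 3. It had 0.15, 0.08 and 17.4 TPM of XBXT10g018217. Both calls were lost with replicates 1 and 2 summed (adjusted p = 0.228 and 0.203) and without the expression filter (0.0716 and 0.0575). They were also lost without cyclopamine replicate 1 (0.0707 and 0.0578) or 2 (0.0714 and 0.0584), or without BMS493 replicate 1 (0.162 and 0.134) or 2 (0.157 and 0.133). The call of XBXT10g020980 was also lost in the fit of all 12 foregut libraries (0.0950). Over all alternatives the adjusted p ran between 3.84e-25 and 0.241 for XBXT10g020980 and between 2.18e-24 and 0.219 for XBXT10g018217.

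**Figure D5:**
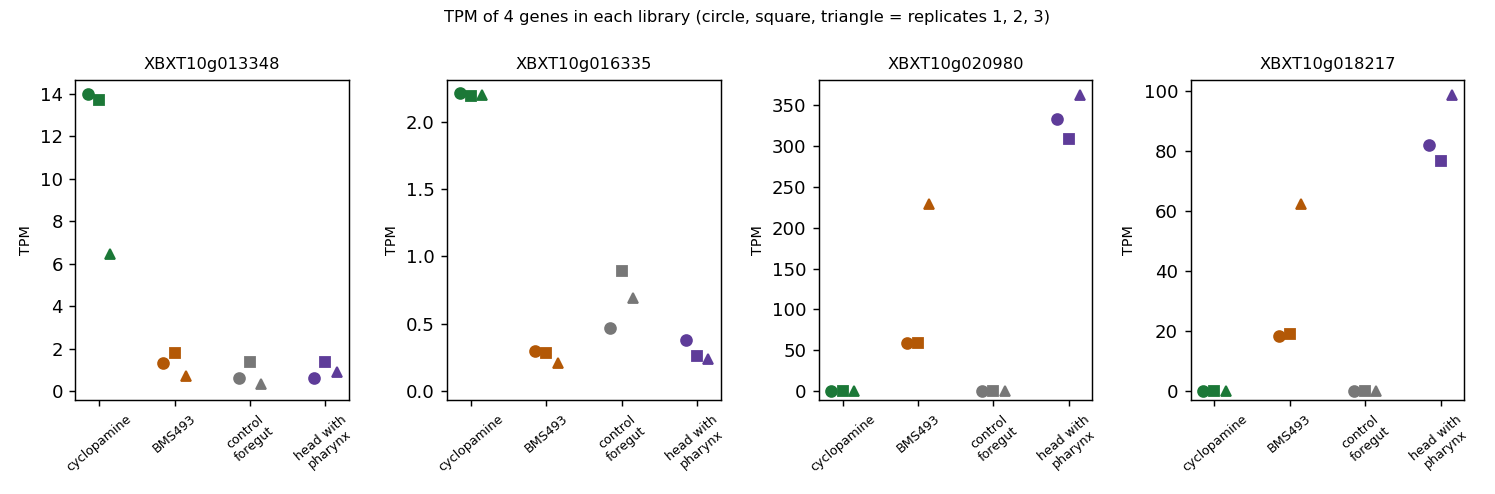
TPM (y axis) of the 2 genes with the largest increase and the 2 with the largest decrease in cyclopamine over BMS493 foregut among called genes with at least 1 CPM on average and no overlap of the drug groups, in each cyclopamine, BMS493, control foregut and control head with pharynx library (points; circle, square and triangle for replicates 1, 2 and 3). The 2 genes that were lower in cyclopamine are at 0 in all cyclopamine libraries and reach 363.3 and 98.9 TPM in head with pharynx.

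Many genes were bounded to a small difference. The 95% interval of the log2 fold change lay wholly between -1 and 1 for 14083 of 18657 genes (75.5%), of which 8430 were not called and 5653 were called. It lay between -0.5 and 0.5 for 9083 genes (48.7%), of which 6454 were not called. For the genes outside these limits that were not called, larger differences could not be told from none at this spread and depth.

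Fewer genes were called at low levels. Among 3236 genes under 1 TPM on average over the 6 libraries, 279 were higher and 541 lower in cyclopamine (25.3% called), with a median SE of 0.336 on the log2 scale. Among 7770 genes between 10 and 100 TPM, 2079 were higher and 1814 lower (50.1%), with a median SE of 0.0661. Of the 1289 genes over 100 TPM, 380 were higher and 269 lower (50.3%). At least 2-fold differences ran the other way, with 168 higher and 380 lower genes under 1 TPM (16.9%), against 225 and 133 between 10 and 100 TPM (4.61%). Over 100 TPM, 66 genes were at least 2-fold higher and 11 lower in cyclopamine (5.97%), a larger share than between 10 and 100 TPM.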

How the data were processed

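Per the labels' protocols, stranded messenger RNA libraries were sequenced. The authors deposited estimated counts for each gene, all of them whole numbers, and TPM values scaled by length and depth. The submitters' processing notes name RSEM 1.3.0 and Bowtie2. Build and annotation: not given in the sources used here. Reads shared by similar gene copies are uncertain. Titles were followed for BMS493 replicates 2 and 3, whose descriptions repeat the name of replicate 1.

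The test was the robust quasi-likelihood test of edgeR 4.0.16 (R 4.3.3) on the 6 libraries, with TMM scaling, an expression filter at a minimum count of 10 and group as the only term. It was run on simulated counts of independent libraries, which do not test it for replicates as unevenly spread as these. Alternatives were DESeq2 1.42.0, limma 3.58.1 on log2(TPM + 1), other scalings, filters and library sets. Log2 CPM used a prior count of 2. Regional classes came from the 9 control libraries. The comparison and classes were chosen with earlier results of these data known. Named genes were the 2 largest differences in each direction among called genes with at least 1 CPM on average and no overlap of groups. Limits of 3 counts over a group at 0 cover counting error only.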

Additional observations from a re-analysis of the deposited data

How the results depend on the processing

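The numbers did not pair the libraries (correlations of deviations -0.0068, -0.0152 and 0.0326). With a replicate block the test called 4171 higher and 4275 lower genes, against 4180 and 4183 without it. DESeq2 called 4140 and 4288, the fit without an expression filter 3999 and 4124, and the fit of all 12 foregut libraries 3864 and 3312. The medians of the 6 regional classes kept their sign in 19 of 19 alternatives each, and the cause of the shifts below was not tested. Low counts limit genes under 1 TPM, and replicates 1 and 2 may share material.

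Values that moved are these. With limma on log2(TPM + 1), whose fold changes are smaller for low genes by construction, 2456 genes were higher. At least 2-fold, 334 were higher and 411 lower. Medians were -0.2906 for genes shared by foregut and head with pharynx, 0.2758 for foregut-enriched, 0.4099 for foregut and hindgut shared, 0.2234 for hindgut-enriched and -0.4667 for lowest in foregut genes. Of genes in no class 8.84% were higher, and of genes called in no control comparison 4.465%. With total counts alone the last group had 7.382% higher and 17.6% lower, and with 12 libraries 6.57% lower.

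With replicates 1 and 2 summed, 2254 genes were higher and 2242 lower. Then 31.88% of genes shared by foregut and head with pharynx were lower and 30.93% of foregut-enriched genes higher. Genes in no class had 8.074% higher and 7.933% lower, and genes called in no control comparison 2.669 and 2.65%.

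With classes at 4-fold, medians were -1.976 for head with pharynx, 0.9617 for foregut and hindgut shared and -1.151 for lowest in foregut, and 32.91% of hindgut-enriched genes were higher. The differences in percent of counts, cyclopamine minus BMS493, were then -0.6666 for head with pharynx, -0.007846 for foregut and head with pharynx shared, 0.09356 for foregut, 0.02823 for hindgut and -0.002925 for lowest in foregut. In TPM they were -0.03646 for foregut and head with pharynx shared and -0.00959 for lowest in foregut. With classes defined without control foregut 2 they were 0.01828 for foregut and head with pharynx shared, which turned its direction, 0.6059 for foregut, 1.164 for hindgut and -0.03457 for lowest in foregut. With a prior count of 0.5 the median control position of the lower 2-fold genes was 1.072.

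Leaving out libraries, singly or the same number from both drug groups, gave 2247 to 5901 higher and 2235 to 5819 lower genes. It gave 30.55 to 55.27% lower among genes shared by foregut and head with pharynx and 31.21 to 55.43% higher among foregut-enriched genes. The median of genes lowest in foregut ran from -0.8419 to -0.5912. Genes in no class had 8.027 to 30.38% higher and 8.034 to 29.48% lower, and genes called in no control comparison 2.757 to 25.22% and 2.727 to 21.65%. The lowest values of these counts and shares came without replicate 1 or 2 of both groups and the highest without replicate 3 of both. Without single control foregut libraries the control position of the lower 2-fold genes was 1.061 to 1.08. Genes at 0 in BMS493 alone numbered 2 to 6.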
